A study of Drosophila melanogaster with 23 samples.

Results

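The gradual rise after a shift to 14 °C comprised 183 of the 32161 probes whose log2 intensities were deposited for a time course of Drosophila melanogaster S2R+ cells in the cool. It holds the probes that had risen little after 4 h, had covered at least 0.5 of their final change after 24 h, and stood at least 2-fold above the level at 25 °C after 72 h. The members were chosen on the deposited values of these same arrays. A probe was taken when its mean after 72 h exceeded the mean of the 6 arrays at 25 °C by at least 1 on the log2 scale, when the corresponding change after 4 h was below 0.7, when the change after 24 h was at least 0.5 times and the change after 12 h at most 2 times that after 72 h, and when each 72 h array lay above all arrays at 25 °C. A total of 4 probes treated separately were left out. Hence the changes from 25 °C to 14 °C given in the following are a description of what was selected, with no test.

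S2R+ is an established, proliferating line of embryonic origin with features of hemocytes, the blood cells of the fly. Aliquots plated at 25 °C were harvested at the time of the shift (0h, 3 arrays) or after 4, 12, 24 or 72 h at 14 °C (5, 3, 5 and 4 arrays), while control aliquots stayed at 25 °C for 12 further hours (t12_25, 3 arrays). The cells of all groups were the same line in the same serum-containing medium, without an added agent or introduced allele, and each RNA sample was labelled with Cy3 and hybridized to 1 single-colour array of total RNA. As the labels do not say whether replicates came from separate passages, the spread between them may be partly technical. The reference level below is the mean of the 0h and t12_25 arrays, and "change" denotes the log2 difference from this mean.

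The identity of the cells was checked with markers. Among the hemocyte markers with a named probe, srp, a GATA factor of blood cell development, had a mean level of 11.24 at 25 °C, and vkg, a type IV collagen chain, 11.75, both well above background on all 23 arrays. The mesoderm factor twi, the germ line gene nos and the yolk protein gene Yp1 were above background on 0 of the 23 arrays, and the germ line gene vas on 0 and 2 for its probes. The mesodermal factor Mef2 (9.78) and the synaptic vesicle protein gene Syt1 (7.50) were detected on all 23, and brp, a protein of the presynaptic active zone, on 5 (6.27). After 72 h the level of Mef2 was 10.73, while srp and vkg had 11.01 and 11.98. The part of this shift in the values of the members was not tested. The arrays lay on 7 slides that were scanned on 2 occasions, between 46.79% and 58.08% of the probes per array were well above background, and 6 arrays were outside the range of the scanner software's quality report (4h replicate 5, 12h replicates 2 and 3, 72h replicates 1, 2 and 3). The 4h and 24h arrays shared no slide with an array at 25 °C. In such bulk samples, more transcripts per cell and more cells of a given state cannot be told apart.

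Ectotherms such as flies cannot hold their body temperature, so that their cells have to keep metabolism, membranes and signalling going while every reaction runs at its own slowed pace. A cooled cell can raise a transcript by making more of it or by degrading it more slowly. The gene products described below include secreted ligands, receptors, signal transducers, proteins that shape membranes and cortical actin, and enzymes.

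A gene name could be assigned to 32 of the 183 member probes, which stand for 29 genes. The other 151 probes are given without names. The 183 probes carry 171 distinct target identifiers, because 12 targets were hit by a pair of members each. Within these 12 pairs the changes after 72 h differed by 0.00 to 1.17, with a median difference of 0.19.

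On values obtained anew from the scanner intensities, the median change of the 183 members was 0.32 after 4 h, 0.80 after 12 h, 1.02 after 24 h and 1.24 after 72 h. The last of these corresponds to a 2.37-fold increase. Single probes reached between 0.99 and 3.12 after 72 h, and 14 of them a change of at least 2. The median over all 32162 probes on the array was 0.00 at every time, which the quantile normalization of these values largely fixes. At the level of single arrays, the median change of the members lay between 0.29 and 0.38 on the 5 arrays at 4 h, between 0.78 and 0.80 on the 3 arrays at 12 h, between 0.93 and 1.04 on the 5 arrays at 24 h and between 1.24 and 1.34 on the 4 arrays at 72 h. On the 6 arrays at 25 °C it lay between -0.16 and 0.07. None of these ranges overlapped with that of another time, and the mean of the array medians was 1.01 ± 0.044 (SD, n = 5) at 24 h and 1.29 ± 0.050 (SD, n = 4) at 72 h. The step from 24 h to 72 h depended on the scaling. With arrays scaled to the 75th percentile of the processed signal, the median member exceeded the median of all probes by 0.89 at 24 h and by 0.88 at 72 h.

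**Figure D1:**
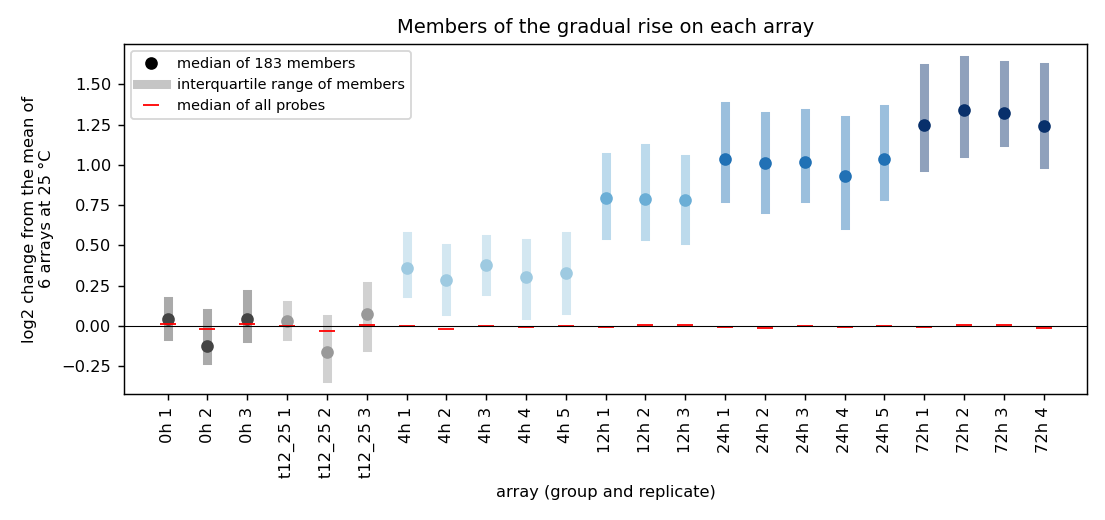
Log2 change from the mean of the 6 arrays at 25 °C (y axis) on each of the 23 arrays (x axis), with the median of the 183 members as a point, their interquartile range as a bar and the median of all probes as a red dash. The member medians step up from between 0.29 and 0.38 at 4 h to between 1.24 and 1.34 at 72 h, while the median of all probes stays near 0, as quantile normalization largely fixes it.

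The course of the rise varied among the members. After 4 h the median member had covered 25.4% of its change at 72 h, after 12 h 59.7% and after 24 h 76.3%. The interquartile range after 24 h was 61.1% to 90.3%. In 125 members (68.3%) the mean increased at every step of the series. In 20 members the change at 24 h already equalled or exceeded that at 72 h, and in 31 members the mean at 12 h was above that at 24 h. The largest change of the series was at 72 h in 159 members, at 24 h in 15 and at 12 h in 9. After 12 h, a time the rule bounded only from above, 119 of the 183 members (65.0%) had passed 0.5 of their change at 72 h.

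The separation of single arrays followed the same order. Every 4h array was above every array at 25 °C in 44 of the 183 members, compared with 2.73% of all probes. The corresponding number was 152 at 12 h (8.64% of all probes), 152 at 24 h (4.76%) and 171 at 72 h (5.49%), with the last number below 183 because the selection had been made on the deposited values. Each 24h array was above each 4h array in 110 members (3.05% of all probes). Between successive times, each 12h array was above each 4h array in 124 members (6.59% of all probes), each 24h array above each 12h array in 40 (2.52%), and each 72h array above each 24h array in 43 (2.61%). All of these contrasts enter the rule, and nothing is read from the shares.

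**Figure D2:**
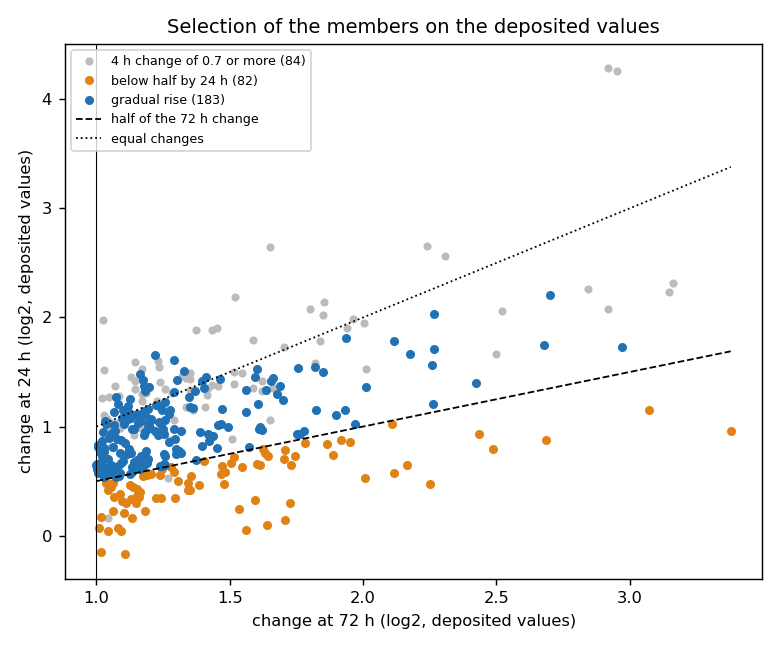
Change at 24 h (y axis) against change at 72 h (x axis), both in log2 of the deposited values, for probes at least 2-fold higher on average after 72 h with every 72h array above the arrays at 25 °C. The 183 members (blue) lie on or above the dashed line of 0.5 times the 72 h change, the 82 probes that were below 0.5 by 24 h (orange) lie under it, and grey points had a 4 h change of 0.7 or more.

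The boundaries of the set ran through a continuum. The member closest to the limit for 24 h had covered 50.3% of its change, and the nearest probe left out 49.5%. The highest 4 h change among members was 0.695, and the nearest probe left out had 0.71. At the limit for 72 h the nearest probe outside had a change of 0.999.

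Transcripts of the members were readily detected before the shift. All 183 were well above background on the 4 arrays at 72 h, and 174 (95.1%) were also on all 6 arrays at 25 °C, compared with 43.7% of all probes. Their median level at 25 °C was 8.69 (range 6.19 to 14.69). Probes with a late rise, which had reached less than 0.5 of the change by 24 h (82 probes), had a median level of 8.16 at 25 °C, probes with a fast rise, which had gained at least 0.7 by 4 h (84 probes), had 8.37, and all probes had 6.34. The share above background on all 6 arrays at 25 °C was similar in these sets, 91.5% for the late rise and 92.9% for the fast rise. The SD over the 6 arrays at 25 °C had a median of 0.23 for the gradual rise, 0.25 for the late rise and 0.23 for the fast rise, against 0.13 for all probes. Signals of different probes also depend on the probes, and the sets were not tested against each other.

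The strongest increases occurred in probes without a gene name. The leading pair was singled out after the values were seen. Probe A_09_P038536 read between 6.66 and 6.92 at 25 °C, 7.01, 6.93, 7.16, 7.0 and 6.95 at 4 h, 7.99, 7.92 and 7.97 at 12 h, 8.88, 8.58, 8.73, 8.16 and 9.02 at 24 h, and had a mean of 9.93 at 72 h. Its change after 72 h was 3.12, the highest among the 183 members, or 8.70-fold. Probe A_09_P015656 had a mean of 7.25 at 25 °C and of 8.81, 9.55 and 10.05 after 12, 24 and 72 h, the last corresponding to a change of 2.80.

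Ligands and a processing protease are presented first. Pvf3 encodes a PDGF- and VEGF-related ligand of the receptor tyrosine kinase Pvr, which acts in hemocyte migration and survival. Its log2 level ranged from 6.92 to 8.15 (median 7.70) on the 6 arrays at 25 °C and was 8.57, 8.22, 8.72, 7.95 and 8.26 at 4 h, 9.38, 9.84 and 9.34 at 12 h, 9.42, 8.9, 9.16, 8.62 and 9.13 at 24 h, and 8.80, 10.00, 9.19 and 9.44 at 72 h. Each array from 12 h on was above those at 25 °C, while the ranges at 12, 24 and 72 h overlapped. The mean was highest at 12 h (change 1.91), followed by 72 h (1.75) and 24 h (1.44). With slide as a block the change at 24 h was 0.78, or 44.8% of that at 72 h. A second Pvf3 probe above background on all arrays at 25 °C and 72 h, which is no member, had a change of 1.01 after 72 h.

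Ilp6 encodes an insulin-like peptide that in the fly is made mainly by the fat body. It was represented by 2 members. The first ranged from 8.15 to 9.30 (median 8.96) at 25 °C and read 9.11, 8.56, 9.07, 8.43 and 9.50 at 4 h, 9.50, 9.78 and 9.64 at 12 h, 9.63, 9.17, 9.91, 9.79 and 10.22 at 24 h, and 9.67, 10.61, 10.46 and 9.87 at 72 h. Its 24h arrays overlapped with those at 25 °C, its 72h arrays did not. The changes of this probe were 0.91 at 24 h and 1.31 at 72 h, those of the other member 0.60 and 1.07. The array held 3 further Ilp6 probes, and the ones above background on all arrays at 25 °C and 72 h had changes of 0.45 and -0.08 after 72 h, so that the probes of this gene disagreed.

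Fur1 encodes a furin-type convertase, which cleaves precursors of secreted and membrane proteins. Its level was between 11.09 and 11.65 (median 11.38) at 25 °C, 11.90, 11.83, 11.94, 12.07 and 11.93 at 4 h, 12.29, 12.40 and 12.51 at 12 h, 12.43, 12.43, 12.35, 12.19 and 12.52 at 24 h, and 13.01, 12.82, 12.89 and 12.58 at 72 h. There was no overlap between 25 °C, 4 h and the later times, nor between 24 h and 72 h. The change after 72 h was 1.46, while the pair of other Fur1 probes had -0.32 and 0.12.

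Receptors and transducers formed the next group. The gene 18w encodes a Toll-family receptor with roles in epithelial morphogenesis. It ranged from 8.01 to 8.55 (median 8.23) at 25 °C and read 8.56, 8.48, 8.66, 8.70 and 8.26 at 4 h, 8.71, 8.37 and 8.47 at 12 h, 9.15, 9.24, 9.17, 8.74 and 8.93 at 24 h, and 9.86, 9.32, 9.27 and 9.73 at 72 h. The arrays at 4 h and 12 h overlapped with those at 25 °C, whereas those at 24 h and 72 h did not overlap with 25 °C or with each other. The change was 0.25 at 12 h, 0.78 at 24 h and 1.28 at 72 h.

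The netrin receptor gene unc-5, known from repulsive axon guidance and cell migration, had 2 member probes with different courses. One changed by 1.19 at 12 h, 1.43 at 24 h and 1.31 at 72 h from a mean of 10.11 at 25 °C. The other changed by 0.33, 1.22 and 1.16 from a mean of 7.40, and its 72h arrays read 9.31, 7.88, 8.25 and 8.82. Another unc-5 probe, which is no member, had changes of 0.87 at 4 h and 1.43 at 72 h.

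The kinase gene rl, the fly ERK downstream of receptor tyrosine kinases, ranged from 6.91 to 7.79 (median 7.51) at 25 °C. It read 7.94, 8.25, 7.81, 8.16 and 7.53 at 4 h, 8.45, 8.0 and 8.10 at 12 h, 8.26, 8.80, 8.34, 9.06 and 7.96 at 24 h, and 8.94, 8.03, 8.19 and 9.24 at 72 h. Each array from 12 h on exceeded those at 25 °C, and the changes were 0.70, 1.00 and 1.12 at 12, 24 and 72 h. A second rl probe had a change of 0.72 at 4 h and 1.52 at 72 h.

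Epac encodes an exchange factor for the GTPase Rap that is activated by cyclic AMP. It ranged from 6.87 to 8.24 (median 7.12) at 25 °C and read 7.72, 8.93, 7.93, 8.52 and 7.64 at 24 h and 9.60, 7.54, 7.70 and 9.13 at 72 h. On these values the 72h arrays overlapped with 25 °C, and the mean change of 1.11 had an SD of 1.0 over the 72h arrays (n = 4). The higher 72h arrays, 9.60 and 9.13, lay on slides 6 and 5, where the arrays at 25 °C read 8.24 and 8.03. The part of the slide in this spread was not tested. Another Epac probe changed by 0.09 from a level of 6.46. Hk, encoding the beta subunit of the Shaker potassium channel, was covered by a probe that the array annotation lists as CG34319. Its mean was 7.33 at 25 °C and 7.96, 9.03, 8.63 and 8.66 at 4, 12, 24 and 72 h, so that it was highest at 12 h.

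Several members act on membranes and the actin cortex. Svil, the fly supervillin (listed as CG13800), ranged from 8.92 to 9.37 (median 9.15) at 25 °C and was 9.78, 9.45, 9.77, 9.52 and 9.61 at 4 h, 10.65, 10.92 and 10.85 at 12 h, between 10.44 and 10.73 on the 5 arrays at 24 h, and 10.53, 11.05, 10.68 and 11.03 at 72 h. The 4h arrays lay between those at 25 °C and all later ones, and the later times overlapped. A second Svil probe had nearly the same changes, 1.68 at 12 h and 1.65 at 72 h against 1.66 and 1.67 for the member, but was not selected, with a 4 h change of 0.73.

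The gene mim encodes an I-BAR protein that bends membranes and binds actin. It ranged from 8.89 to 9.97 at 25 °C, was 9.94, 9.51 and 9.43 at 12 h, on average 10.43 ± 0.45 (SD, n = 5) at 24 h with a lowest array of 9.89, and 10.93, 10.03, 9.99 and 11.41 at 72 h. Only the 72h arrays were all above those at 25 °C, and by a small margin. The changes were 0.24 at 12 h, 1.04 at 24 h and 1.2 at 72 h, while a second mim probe had 1.56, 1.43 and 1.29 and a change of 0.93 at 4 h. ATP8A, a flippase that moves phospholipids between membrane leaflets, changed by 0.58 at 12 h, 0.64 at 24 h and 1.05 at 72 h.

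For nompB, the fly homologue of the intraflagellar transport protein IFT88, the probe was well above background on none of the 6 arrays at 25 °C, where it read 6.07 to 6.29. It was above background on all arrays at 14 °C and read 6.92, 6.84, 7.0, 6.70 and 6.99 at 4 h, 7.57, 7.46 and 7.69 at 12 h, 7.79, 7.43, 8.01, 7.87 and 8.01 at 24 h, and 7.44, 8.05, 8.26 and 7.66 at 72 h. The reference was the higher of its own signal and the lowest signal well above background on each array at 25 °C. It equalled the probe's own mean of 6.19. Against it, the measured level was 1.63-fold higher at 4 h, 2.61-fold at 12 h, 3.11-fold at 24 h and 3.17-fold at 72 h. The deposited values gave smaller changes, 1.43 at 24 h and 1.46 at 72 h, against 1.64 and 1.67 here. The ranges at 24 h and 72 h overlapped.

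CAH1 encodes a carbonic anhydrase, which interconverts carbon dioxide and bicarbonate. It ranged from 6.23 to 6.66 (median 6.45) at 25 °C, where 5 of the 6 arrays were above background, and read 6.90, 7.16 and 7.25 at 12 h, 7.51, 7.09, 7.22, 6.96 and 7.43 at 24 h, and 7.68, 8.12, 8.51 and 7.57 at 72 h. The 12h, 24h and 72h arrays were all above those at 25 °C, and the 72h arrays were above those at 24 h. The change was 1.53 after 72 h, with 52.4% of it reached by 24 h, close to the limit of the rule.

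The acyl-CoA synthetase gene pdgy, which acts in fatty acid breakdown, had a mean of 8.36 at 25 °C and of 8.57, 9.38, 9.37 and 9.68 at 4, 12, 24 and 72 h. CG9743, annotated as a fatty acyl desaturase, changed by 0.50, 0.71, 0.65 and 1.00 at 4, 12, 24 and 72 h from a mean of 12.34. CG5321, which the study counts among the genes of beta oxidation, ranged from 6.72 to 6.98 at 25 °C and read 7.67, 7.48 and 7.64 at 12 h, 8.03, 7.81, 7.92, 7.59 and 8.16 at 24 h, and 8.67, 8.78, 9.01 and 8.60 at 72 h. Its arrays did not overlap between 25 °C, 24 h and 72 h, and the change after 72 h was 1.89, or 3.70-fold.

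Sting, BomBc2, GstE2 and veil were outside the selection for naming and are included to cover every named member. The lists examined for innate immunity (8 probes) and for oxidative stress and detoxification (21 probes) did not include these genes and held 0 members. Sting, the sensor of cyclic dinucleotides in antiviral and antibacterial defence (listed as CG1667), ranged from 13.63 to 13.98 at 25 °C and read 14.04, 14.07, 14.14, 14.10 and 14.03 at 4 h, 14.79, 14.76 and 14.68 at 12 h, 15.17, 15.13, 15.24, 14.82 and 15.15 at 24 h, and 15.10, 15.05, 15.26 and 15.02 at 72 h. The arrays of 25 °C, 4 h, 12 h and 24 h were separated from each other, whereas 24 h and 72 h overlapped, with changes of 1.30 and 1.31. BomBc2, a Bomanin peptide gene of the Toll response (listed as CG15067), had 2 member probes with changes of 1.19 and 1.16 at 24 h and of 1.23 and 1.19 at 72 h.

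GstE2, a glutathione S-transferase gene, ranged from 7.89 to 8.20 at 25 °C and from 7.93 to 8.16 at 4 h, and read 8.55, 8.40 and 8.42 at 12 h, 8.76, 8.80, 8.64, 8.69 and 8.78 at 24 h, and 9.44, 9.40, 9.30 and 9.26 at 72 h. The times from 12 h on were separated from 25 °C and from each other, and 52.5% of the change at 72 h (1.29) was reached by 24 h. The gene veil, encoding a 5′-nucleotidase, moved in steps, with changes of 0.71, 0.61, 0.70 and 1.28 at 4, 12, 24 and 72 h.

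Among other named members, Prosbeta3, a subunit of the proteasome core, ranged from 9.64 to 11.01 at 25 °C and changed by 0.57 at 12 h, 1.10 at 24 h and 1.16 at 72 h. It was 1 of 49 probes in the study's proteasome list, of which no other was a member. The odorant receptor name Or67b came from the transcript identifier of the probe, which changed by 1.26 after 72 h from a mean of 10.69. A second Or67b probe changed by 0.16 from a level of 6.17. This second probe was above background on only 4 of the 10 arrays at 25 °C and 72 h. The long noncoding RNA lncRNA:CR43264 changed by 1.24 after 72 h.

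The genes known only by a systematic name included the largest named changes. CG34328 ranged from 6.82 to 7.44 (median 7.09) at 25 °C and read 7.21, 6.92, 7.28, 6.95 and 7.13 at 4 h, 7.81, 8.03 and 7.91 at 12 h, 8.42, 8.08, 8.45, 7.98 and 8.77 at 24 h, and 8.80, 9.47, 9.44 and 8.87 at 72 h. The 4h arrays overlapped with 25 °C, all later arrays were higher, and the change reached 2.04, or 4.10-fold. CG34305 (change after 72 h 1.86), CG10208 (1.70), CG33494 (1.62) and CG34386 (1.22) likewise had all arrays from 12 h on above those at 25 °C. Other CG34386 probes, above background on 7 and 9 of the 10 arrays at 25 °C and 72 h, changed by 0.45 and 0.43. CG34033 was the least even of this group, with 8.73, 8.69, 8.55, 7.22 and 7.94 at 24 h and 7.71, 8.37, 7.80 and 8.28 at 72 h.

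**Figure D3:**
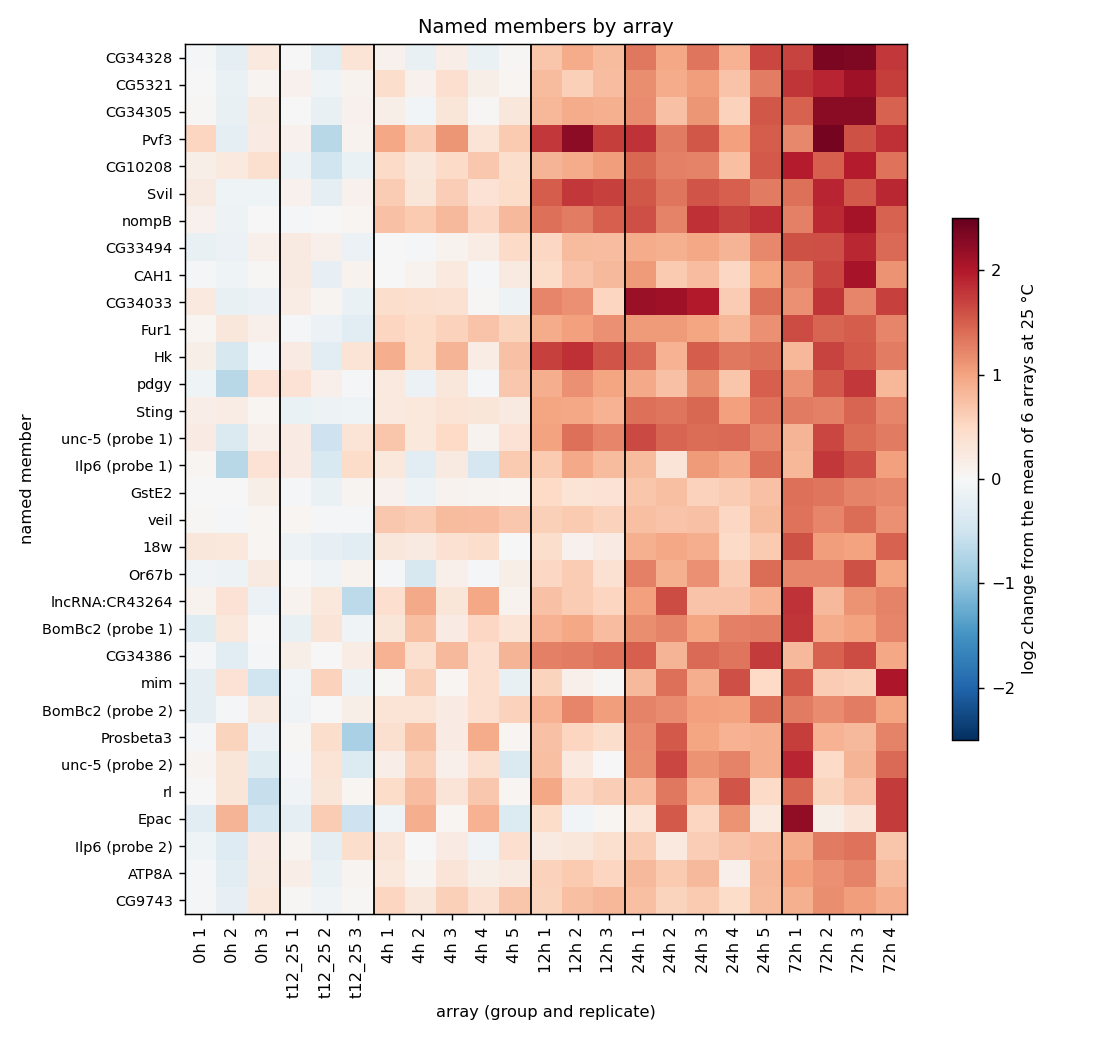
Log2 change from the mean of the 6 arrays at 25 °C (colour scale) for the 32 named member probes (rows, in order of the change at 72 h) on the 23 arrays (columns, with lines between the groups). Red deepens from 4 h to 72 h in most rows, while Epac, mim and rl are high on the 72h replicates 1 and 4 and lower on replicates 2 and 3.

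Few of the members belonged to the gene lists that were examined. Of 12 gene lists assembled for this tissue and treatment, 8 contained no member, namely those for extracellular matrix, microtubules, V-ATPase, insulin, sugar and lipid metabolism, the ecdysone response, heat shock proteins, oxidative stress and detoxification, and innate immunity. These 8 lists held 4 to 59 probes each, while members were 183 of all 32162 probes, so that nothing is read from an empty list. The members Ilp6, pdgy, CG9743, GstE2, Sting and BomBc2 were not on these 8 lists. An empty list therefore does not mean that no gene of that kind rose. Of 15 process lists of the study, 11 contained none. In the list for JAK/STAT, ETS, receptor tyrosine kinase and JNK signalling, 2 of 45 probes were members (Pvf3 and rl), 4 were at least 2-fold higher after 72 h with all arrays above those at 25 °C, and 0 were correspondingly lower, with a median change of 0.08. In the study's list for insulin and TOR, 2 of 64 probes were members (both Ilp6), 3 were higher, 0 lower, and the median was 0.12. In its list for lipid metabolism 2 of 29 were members, the same 2 were the probes that were higher, and the median was 0.27. The adhesion list had 2 members of 13 probes (18w and mim), the actin list 1 of 24 (mim) and the transport list 1 of 15 (CAH1). Over all probes, 350 (1.09%) were at least 2-fold higher and 303 (0.942%) at least 2-fold lower, with a median change of 0.00. As few genes had a named probe, for example 20 of 78 in the signalling list, these counts are a partial view.

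The genes were also followed on their other probes. For 63 of the members, the array held at least 1 further probe for the same named gene or target. Of 58 such probes that were no members, 38 were above background on all arrays at 25 °C and 72 h. Among these 38, 34 had a positive change after 72 h and 14 a change of at least 1. In 17, every 72h array was above those at 25 °C, against 5.49% of all probes. Their median was 0.84, against 0.00 over all probes. The values for all probes include dim ones, and no share was computed for probes of similar detection. These arrays and this contrast are those of the rule, and nothing is read from these counts.

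Slides and scans were shared unevenly between the groups, and the rise was therefore read within them. On the slides that held arrays of both, the median member was higher at 72 h than at 25 °C by 1.24, 1.34 and 1.32 (slides 1, 5 and 6), and between 182 and 183 of the 183 members were higher. As the rule had placed each 72h array above all arrays at 25 °C, this direction was largely fixed by the selection. At 12 h the difference was 0.76 and 0.75 (slides 1 and 3). Between 24 h and 4 h it was 0.75, 0.67 and 0.68 (slides 2, 4 and 7), and between 72 h and 24 h, which shared slide 2 only, it was 0.30, with 150 of 183 members higher. With slide as a block, the median changes were 0.31, 0.76, 1.02 and 1.27 at 4, 12, 24 and 72 h. Under this fit 162 members kept at least 0.5 of their change by 24 h, with shares between 26.4% and 125%, and 142 met the whole rule.

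**Figure D4:**
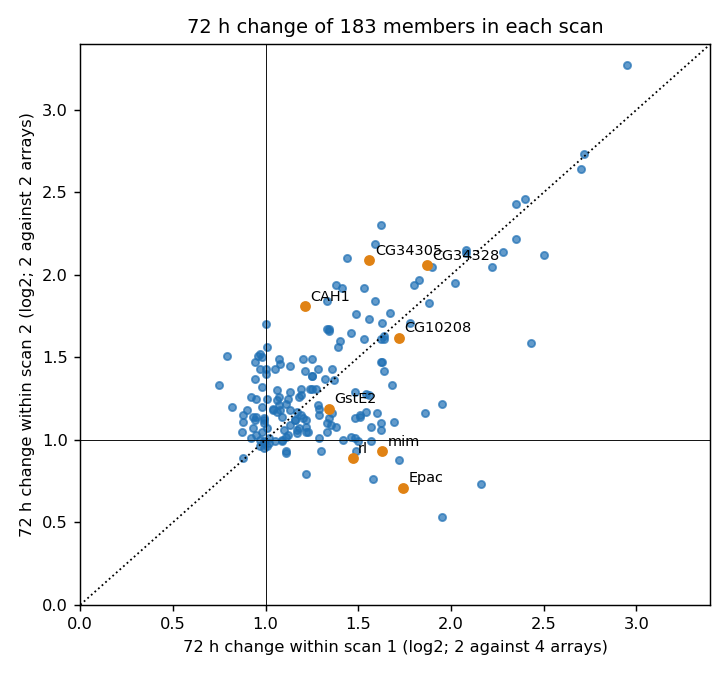
Change at 72 h in scan 1 (x axis, log2, 2 arrays against 4 at 25 °C) and in scan 2 (y axis, log2, 2 arrays against 2) for the 183 members, with selected genes in orange and a dotted line of equality. All points are positive in both scans, which the rule largely fixed in advance. Epac, mim and rl lie below the line and CAH1 and CG34305 above it.

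Within the first scan the median change was 0.35, 0.81, 1.00 and 1.25 at 4, 12, 24 and 72 h, and within the second 0.29, 0.76, 1.01 and 1.22. All 183 members were higher after 72 h in both, and 132 by at least 1 in both. The direction was again largely fixed by the rule. Single members differed more. At 72 h, both arrays of the first scan (replicates 1 and 4) were above both of the second (replicates 2 and 3) in 38 members (20.8%, against 22.7% of all probes) and below them in 85 (46.4%, against 35.4%). Epac changed by 1.74 in the first scan and by 0.71 in the second, mim by 1.63 and 0.93, and rl by 1.47 and 0.89. In contrast, CAH1 changed by 1.21 and 1.81 and CG34305 by 1.56 and 2.09. Both 72h arrays of the first scan lay on slides 5 and 6, while its arrays at 25 °C lay on slides 3, 5 and 6. At 25 °C, Epac read 8.24 and 8.03 on slides 6 and 5, and 7.11 and 7.13 on slide 3. Slides 5 and 6 were likewise above slide 3 for mim and rl, and below it for CAH1 and CG34305. The changes within the first scan thus mix slides. The parts of the scan and of the slide in these differences were not tested.

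The difference between the 2 groups at 25 °C was the only contrast that was not itself part of the rule. The arrays of both groups were used by it, for the reference mean and as levels that each array of the last time had to exceed. A probe that differed strongly between these groups could fail that demand, so small differences of the members may be partly fixed by the selection. The size of this effect was not tested. The comparison asked whether the members moved when cells stayed at 25 °C for 12 h more. With limma and Benjamini-Hochberg adjustment over all probes, 0 of 183 members and 0 of 32162 probes (0%) were called at an adjusted p below 0.05 with a fold of at least 2, and none was without the fold limit. At an unadjusted p below 0.05 there were 17 members (9.29%) and 1303 probes (4.05%), with 7 members higher (1.87% of all probes) and 10 lower (2.18%) in t12_25. The difference t12_25 minus 0h had a median of 0.001 over the members, an interquartile range of -0.15 to 0.12 and a range of -0.61 to 0.96, with a median standard error of 0.18. It was within 0.5 in either direction for 174 members, 94 members were higher and 89 lower. The median difference of the late rise was -0.144 and that of the fast rise -0.035, with 9.76% and 9.52% of their probes at an unadjusted p below 0.05. These sets were not tested against each other.

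Among named members, the largest decreases during the additional time at 25 °C were -0.52 for CG10208 (SE 0.18), -0.40 for 18w (SE 0.15) and -0.33 for Pvf3 (SE 0.29). The largest increases were 0.29 for pdgy (SE 0.27), 0.26 for mim (SE 0.35) and 0.22 for CG34386 (SE 0.20), and the limma adjusted p was 1.0 for each of the 6. The call was not the same for a pair of probes without a name. A_09_P061436 (-0.49) and A_09_P178910 (-0.52) had a limma adjusted p of 0.057 each, and of 0.036 each with the replicate block, under which 2 members and 3 probes in all (0.00933%) passed without the fold limit. Both also passed without 24h replicate 4 (limma adjusted p 0.030 each) and without t12_25 replicate 3 (0.011 and 0.020), where A_09_P045286 passed as well (0.90, limma adjusted p 0.0026). With slide as a block, A_09_P061436 passed (limma adjusted p 0.046), as 1 of 8 probes (0.0249%). On the deposited values, 6 members of 50 probes (0.155% of all) passed without the fold limit. Of these 6 members, 4 were higher and 2 lower in t12_25, and none reached a 2-fold difference, as 0.00622% of all probes did.

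**Figure D5:**
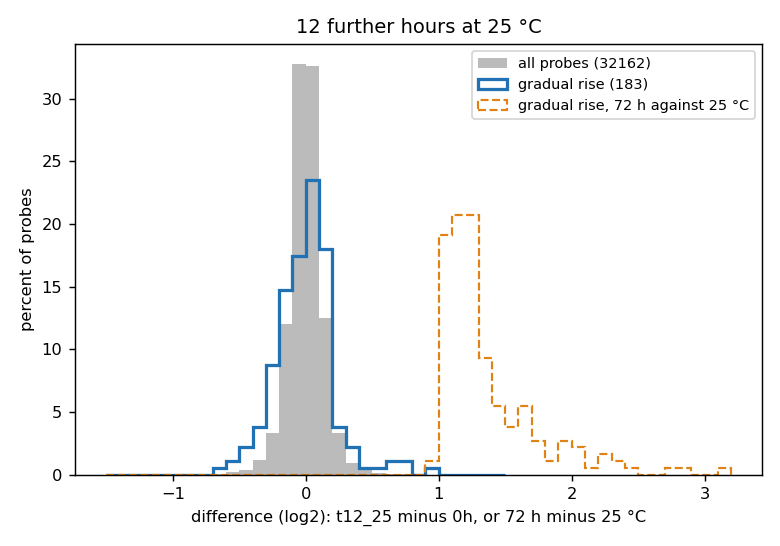
Share of probes (y axis, percent) by log2 difference (x axis) between t12_25 and 0h for all probes (grey) and the 183 members (blue line), and by the change at 72 h for the members (orange dashes). The differences at 25 °C centre on 0 for both, with the members between -0.61 and 0.96, whereas the changes at 72 h run from 0.99 to 3.12 as the rule requires.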

How the data were processed

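RNA of 23 S2R+ samples was hybridized to 1-colour Agilent arrays. The deposited scanner files give spot intensities, and the deposited table gives log2 values of 32161 probes that the authors made with normexp background correction and quantile normalization in limma, followed by surrogate variable analysis. Members were selected on the latter. All other values were computed from the deposited median spot and background intensities (limma 3.58.1 in R 4.3.3): local backgrounds over 3 times the array median were set to that median (23 spots on 7 arrays), followed by normexp with an offset of 50, quantile normalization, log2 and the median over replicate spots without those flagged as outliers. Detection was read from the deposited flag for spots well above background, and the deposited processed signal intensities served as an alternative. No spots were saturated, and the number of arrays limits the precision.

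Differences at 25 °C were tested in 1 limma fit of 6 groups (two-sided, Benjamini-Hochberg). The fit was tested on simulated data with known changes. Same-numbered 0h and t12_25 arrays deviated together (r = 0.474, 0.842 and 0.599). Replicates 1 and 3 also did so across the groups (r = 0.385 and 0.372), while the remaining pairs had r between -0.691 and -0.541. The main fit had no block and did not use a pairing by number. A fit with replicate number as a block was run as an alternative. The pairs with numbers 1 and 3 also shared a slide.

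Members and lists were chosen with earlier results of these data known. The rule for naming took the 12 named genes with the largest change at 72 h, up to 3 per list, genes discussed by the study, and the 3 largest differences at 25 °C in each direction, which gave 20 genes. The 9 other named genes were added for completeness. Names came from the study's probe annotation, transcript identifiers and RefSeq (4035 of 32162 probes), and of the other probes only some outstanding ones are mentioned, by identifier. Alternatives covered background, normalization, slide, replicate, dim probes, baseline and left-out arrays.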

Additional observations from a re-analysis of the deposited data

Results flagged for a closer look

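Among 90 sets of 4 or 5 arrays (the median of the members and the 29 named genes, at 4, 24 and 72 h), 6 contained an array that was far from the rest by Dixon's criterion, where chance gives about 1 in 20. The median member change on the 24h replicate 4 was 0.93, against 1.01 to 1.04 on the other 24h arrays. On the same array Sting read 14.82 (others 15.13 to 15.24), veil 7.32 (others 7.52 to 7.59) and ATP8A 9.83 (others 10.36 to 10.51). Hk read 8.20 on the 24h replicate 2 (others 8.65 to 8.84), and GstE2 7.93 on the 4h replicate 2 (others 8.10 to 8.16).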

How the results depend on the processing

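The share of the 72 h change that the median member had reached by 24 h (76.3%) lay between 75% and 77.8% under the alternatives of background, scaling, block, dim probes and baseline, and between 75.3% and 77.4% when single arrays were left out. It was 81.7% without the 6 arrays outside the quality range, a setting added after seeing the data. This setting left only replicate 4 at 72 h and only replicate 1 at 12 h. The size of the changes moved with the scaling. Median changes at 4, 12, 24 and 72 h were 0.37, 0.92, 1.15 and 1.40 with an offset of 0, 0.44, 1.03, 1.18 and 1.46 with scaling to the 75th percentile, and 0.18, 0.54, 0.76 and 0.94 with median scaling. The 75th percentile moved the median of all probes by 0.165, 0.524, 0.296 and 0.588 at these times, and relative to it the members had 0.28, 0.51, 0.89 and 0.88, so that their rise from 24 h to 72 h was no longer seen. Median scaling moved it by -0.11 at 72 h, and the relative changes were 0.23, 0.62, 0.80 and 1.05. At 12, 24 and 72 h the median changes themselves were 0.65, 0.90 and 1.12 with uncapped backgrounds, and 0.86, 1.07 and 1.31 without background correction. At 12 h, where the 3 arrays differed little, the median was 0.73 on deposited values, 0.76 with slide as a block, 0.78 with t12_25 alone as the baseline and 0.75 to 0.82 with single arrays left out. The replicate block moved no median beyond the spread between arrays (0.80 at 12 h, 1.25 at 72 h).

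The number of probes meeting the rule was 692 with scaling to the 75th percentile (117 of them members) and 83 with median scaling (70 members). It lay between 176 and 195 with single arrays left out, with at least 163 members retained, and was 189 with the replicate block (165 members). Chosen after seeing the data, the values processed here gave 177 probes (162 members), and 197 with slide as a block (142 members). Without the 6 arrays outside the quality range only replicate 4 was left at 72 h, so no count is given for that setting. Of the named probes, 4 of 32 no longer met the rule on values processed here (Pvf3, nompB, veil and Epac). For the groups at 25 °C, the count of called probes was 0, 1 with an offset of 0, 2 on deposited values and 0 to 1 with single arrays left out (1 without t12_25 replicate 3 or 24h replicate 4), none of them a member. Without the fold limit, settings added after seeing the data called 50 probes (6 members) on deposited values, 8 (1 member) with slide as a block and 3 (2 members) with the replicate block. With single arrays left out they called 0 to 6 probes and 0 to 3 members, namely 6 probes (3 members) without t12_25 replicate 3, 3 (2 members) without 24h replicate 4 and 2 (2 members) without 4h replicate 5. The cause of these differences was not tested.

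The changes at 72 h of the 29 named genes moved beyond the spread of their arrays in 46 of 319 combinations of gene and setting, and the shares reached by 24 h in 10 of 319. No change was turned in sign. The number of arrays and the dim signal of probes such as nompB limit the precision.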
